A study of Mus musculus with 9 samples.

Results

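Srebf2, Insig1 and 6 enzymes of cholesterol synthesis (Hmgcs1, Idi1, Fdft1, Sqle, Lss and Dhcr7) are described here in cells sorted as retinal ganglion cells (RGCs) from the mouse. The 8 genes were chosen by name, as rows of a table of 15228 genes, and all 8 had a mean level above the filter on low values. The cells came from young adult wild-type C57BL/6J mice of both sexes and were sorted by their surface proteins (positive for CD90.2 and negative for CD48, CD15 and CD57). The Ctrl group came from intact retinas. The ONC group came from retinas taken 3 d after optic nerve crush (ONC), an injury of the RGC axons, with an intraocular injection of vehicle. The TPEN group was taken 3 d after the same crush, with an intraocular injection of TPEN, a chelator of mobile zinc, in place of vehicle. No injection is described for Ctrl, so crush and injection cannot be told apart in ONC/Ctrl or TPEN/Ctrl. Each of the 3 groups had 3 RNA-seq libraries, and levels are in RPKM, reads normalized to exon length and library size. The sources used here do not give whether replicates were taken from different animals, so the p-values measure only the spread between these libraries, which may be technical.

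Cells make cholesterol from acetyl-CoA through mevalonate, isoprenoid diphosphates, squalene and lanosterol. SREBP2, the product of Srebf2, is held in the membrane of the endoplasmic reticulum by SCAP and the INSIG proteins when sterols are plentiful. When sterols fall, SCAP carries SREBP2 to the Golgi, where it is cleaved, and the released part switches on the genes of synthesis and of lipoprotein uptake. In the retina, Müller glia are known as a major site of synthesis, and neurons take up part of their cholesterol as lipoproteins that contain apolipoprotein E.

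The changes of the 8 genes were small in size, with no 95% interval that reached 1.5-fold in any comparison. Hmgcs1, which encodes the cytosolic HMG-CoA synthase at the entry to the mevalonate pathway, was upregulated by 14.6% in ONC/Ctrl and by 23.2% in TPEN/Ctrl (difference of the group means, n = 3). The other 7 genes passed the test in none of the 3 comparisons. Among the other enzymes of the pathway, Pmvk and Ebp were upregulated and Tm7sf2 was downregulated in ONC/Ctrl.

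The bases before the start site are shown for Hmgcs1, the one gene of the 8 that passed the test, and for Srebf2 and Insig1, the regulators that did not. They were taken from RefSeq (GRCm38.p6), which matched 6 of the 8 genes (Srebf2, Insig1, Hmgcs1, Idi1, Lss and Dhcr7). Sqle and Fdft1 were not matched. Each is the 250 bases before the annotated start site, 5′ to 3′ on the plus strand, at chr13:119690101-119690350 for Hmgcs1, chr15:82147019-82147268 for Srebf2 and chr5:28071162-28071411 for Insig1. The start sites are those of RefSeq and differ from the starts of the genes as counted. The counted gene starts at 28071363 for Insig1 and 82147266 for Srebf2, inside the bases shown, and at 119690462 for Hmgcs1, beyond them. Capitals mark matches to TCACNCCAC, a form of the sterol regulatory element bound by SREBPs, and to CCAAT on either strand, the box bound by NF-Y.
Hmgcs1 upstream: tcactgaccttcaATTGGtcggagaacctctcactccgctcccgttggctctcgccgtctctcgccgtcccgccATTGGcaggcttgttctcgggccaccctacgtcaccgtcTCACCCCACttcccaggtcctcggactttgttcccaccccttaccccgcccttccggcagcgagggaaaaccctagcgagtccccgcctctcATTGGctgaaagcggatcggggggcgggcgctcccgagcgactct
Srebf2 upstream: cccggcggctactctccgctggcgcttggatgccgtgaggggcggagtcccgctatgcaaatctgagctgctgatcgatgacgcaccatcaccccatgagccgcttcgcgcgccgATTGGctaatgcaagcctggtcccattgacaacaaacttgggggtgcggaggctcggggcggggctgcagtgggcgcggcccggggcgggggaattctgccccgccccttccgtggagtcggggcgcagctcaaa
Insig1 upstream: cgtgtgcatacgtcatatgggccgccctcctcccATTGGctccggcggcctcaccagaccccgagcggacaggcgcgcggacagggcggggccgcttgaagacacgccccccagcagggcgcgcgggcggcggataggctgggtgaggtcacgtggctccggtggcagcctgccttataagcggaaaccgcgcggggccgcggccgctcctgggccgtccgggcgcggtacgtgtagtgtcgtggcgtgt
Hmgcs1 held TCACCCCAC at chr13:119690214-119690222, with its first base 137 bases before the RefSeq start site. TCACNCCAC was found in the window of 1 of the 6 matched genes, Hmgcs1, and of 1.44% of the 27025 genes with a promoter in the table (1.24% of 32851 promoters). The window, of which a gene can have several, runs from 250 bases before to 50 bases after the start and was searched on both strands. CCAAT was found for 6 of the 6 genes and for 41.1% of all genes (37.4% of promoters), and GGGCGG, the box bound by Sp1, for 6 of the 6 and for 38.2% of all genes (35.7% of promoters). No motif contains another, and a match or its lack describes these letters in this window only.

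The library totals, worked out from the values, were 19946993 to 23109754 reads. The sorted cells carried markers of several retinal cell types. The summed level of 6 rod markers was 18349 to 19201 RPKM in Ctrl, 16075 to 16304 in ONC and 17291 to 17414 in TPEN. Of these, Sag rose in ONC/Ctrl (log2 fold change 0.08), where the other rod markers fell. The summed level of 5 cone markers was 123 to 130 RPKM in Ctrl, 106 to 115 in ONC and 190 to 193 in TPEN. The RGC markers differed widely in level, with means of 240 RPKM for Nefl, 51.5 for Nefm, 20.5 for Sncg, 5.74 for Thy1, 1.83 for Isl1, 0.439 for Rbpms, 0.380 for Slc17a6 and 0.332 for Pou4f1. Pou4f2 and Pou4f3 were not among the listed genes. The summed level of the 9 listed of 10 microglia and macrophage markers was 3.87 to 4.72 RPKM in Ctrl, 39.9 to 41.4 RPKM in ONC and 20.6 to 22.6 RPKM in TPEN. The sum of 10 Müller glia markers, which include Apoe, was 557 to 577, 622 to 634 and 491 to 502 RPKM in the same order of groups. Without Apoe, which is described below, it was 389 to 404, 358 to 359 and 311 to 327 RPKM, and that of the 3 listed of 4 astrocyte markers was 5.54 to 6.21, 27.2 to 28.3 and 17.3 to 20.05 RPKM. The sum of the 8 listed of 10 RGC markers was 329 to 339, 345 to 365 and 265 to 278 RPKM. Nefl was the largest part of this sum, and the RGC markers did not move alike. In TPEN/ONC, Nefl, Nefm and Sncg fell (log2 fold changes -0.42, -0.42 and -0.34), while Thy1 rose (0.40, limma adjusted p = 0.00587). Isl1 was not called in that comparison, and the other listed RGC markers lay below the filter. The part of these shifts in the results that follow was not tested, and in bulk libraries fewer cells of a type and less RNA per cell cannot be told apart.

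By mean RPKM over the 9 libraries, Hmgcs1 was highest at 17.4, followed by Fdft1 at 8.57, Idi1 at 5.39, Srebf2 at 4.34, Sqle at 2.30, Lss at 2.16, Insig1 at 2.12 and Dhcr7 at 0.909. Hmgcs1 was above Fdft1, Fdft1 above Idi1, Srebf2 above Sqle and Insig1 above Dhcr7 in 9 of 9 libraries, and Idi1 was above Srebf2 in 8 of 9. Sqle, Lss and Insig1 were not separated, since Sqle exceeded Lss in 6 of 9 libraries and Lss exceeded Insig1 in 4 of 9. The level of Lss rests on an exon length of 10787 bases in the table, and its exons overlap those of 4930483K19Rik on the opposite strand.

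**Figure D1:**
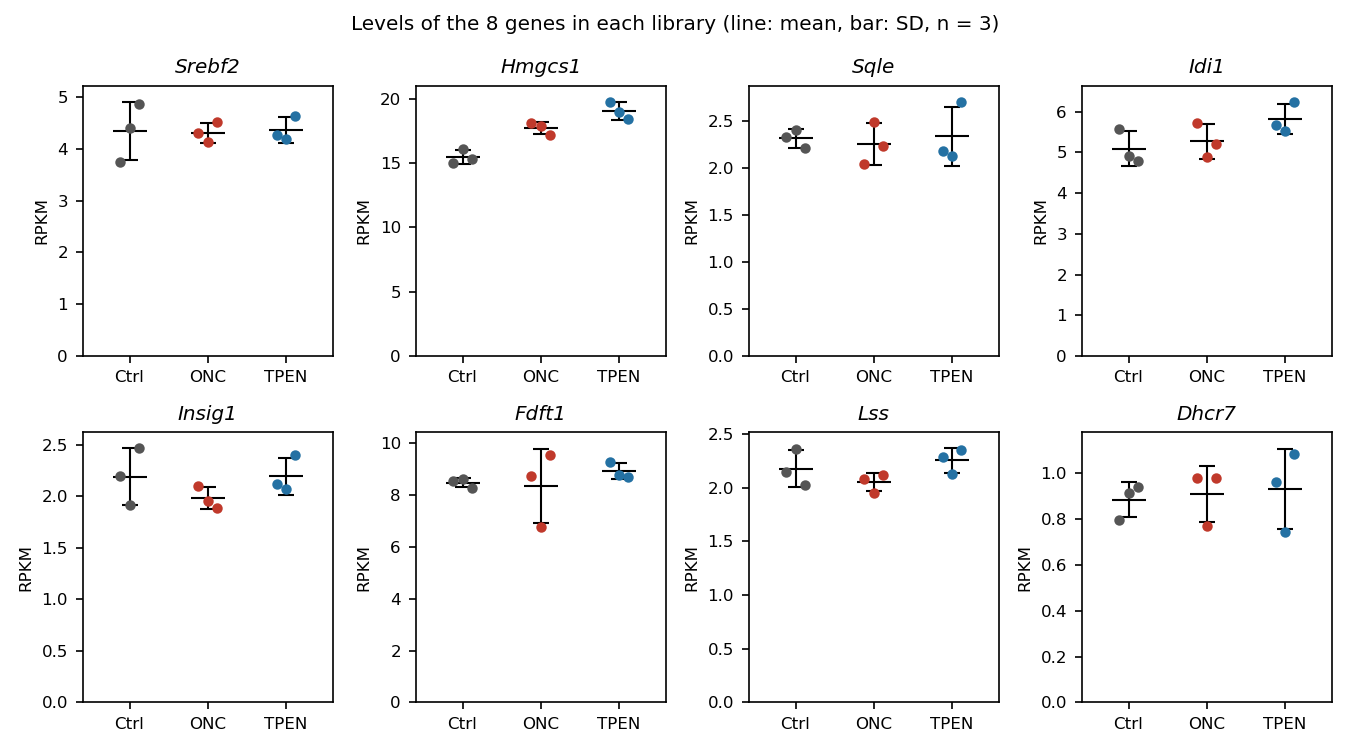
Level of each of the 8 genes in every library, in RPKM on a linear axis from 0. Points are libraries, the long line is the group mean and the bar is the SD (n = 3); the Hmgcs1 libraries step up from Ctrl (15.0 to 16.1) through ONC (17.2 to 18.1) to TPEN (18.4 to 19.7), while the groups of Srebf2, Sqle, Idi1, Insig1 and Dhcr7 overlap.

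Srebf2 (chr15:82147266-82205376, plus strand, GRCm38), the gene of the transcription factor itself, stood at 3.75, 4.41 and 4.87 RPKM in the Ctrl libraries. It was 4.30, 4.13 and 4.51 RPKM in ONC and 4.27, 4.19 and 4.64 RPKM in TPEN. The highest and the lowest value were both Ctrl libraries, and the 6 injured libraries lay between them. The log2 fold change of Srebf2 was -0.0032 in ONC/Ctrl (SE, standard error, 0.10, limma adjusted p = 0.987) and 0.02 in TPEN/ONC (SE 0.10, limma adjusted p = 0.946), and the 95% interval of the fold in ONC/Ctrl was 0.859 to 1.16.

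Insig1 (chr5:28071363-28078662, plus strand) encodes a sterol-sensing protein that retains SCAP and is itself a target of SREBPs. Its levels were 2.19, 1.92 and 2.46 RPKM in the Ctrl libraries, 2.10, 1.96 and 1.89 in the ONC libraries and 2.12, 2.07 and 2.40 in the TPEN libraries. The ONC libraries lay inside or just below the range of Ctrl, and all 3 groups overlapped. The log2 fold change was -0.13 in ONC/Ctrl (SE 0.11, limma adjusted p = 0.456) and 0.14 in TPEN/ONC (SE 0.11, limma adjusted p = 0.513). Insig1 had 131 to 153 reads per library, and its spread within groups was 1.09 times that of read counting alone, so its precision was close to the limit set by depth.

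Hmgcs1 (chr13:119690462-119708086, plus strand), whose upstream bases with the TCACCCCAC match are shown above, had 995 to 1364 reads per library. Its levels were 15.0, 16.1 and 15.3 RPKM in the Ctrl libraries, 18.1, 17.9 and 17.2 in the ONC libraries and 19.7, 19.0 and 18.4 in the TPEN libraries. Every ONC library was above every Ctrl library, and every TPEN library was above every ONC library. Groups did not overlap, in the higher direction, for 20.7% of all tested genes in ONC/Ctrl for 12.5% in TPEN/ONC and for 18.1% in TPEN/Ctrl. By the fit, the log2 fold change was 0.20 in ONC/Ctrl (SE 0.04, limma adjusted p = 0.0123) and 0.30 in TPEN/Ctrl (SE 0.04, limma adjusted p = 0.00165). In TPEN/ONC it was 0.10 (SE 0.04), which did not pass (limma adjusted p = 0.203). The call in ONC/Ctrl was lost without Ctrl replicate 1 (limma adjusted p = 0.0501) or ONC replicate 1 (limma adjusted p = 0.0508), and the call in TPEN/Ctrl held whichever library was left out. The cone marker sum was likewise highest in TPEN, but lower in ONC than in Ctrl, and its part in the level of Hmgcs1 was not tested.

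Idi1 (chr13:8885501-8892451, plus strand) encodes the isomerase that sets the balance of the isoprenoid diphosphates. Its levels were 5.57, 4.90 and 4.79 RPKM in the Ctrl libraries, 5.72, 4.88 and 5.20 in the ONC libraries and 5.67, 5.53 and 6.24 in the TPEN libraries. The log2 fold change of Idi1 was 0.05 in ONC/Ctrl (limma adjusted p = 0.742), 0.14 in TPEN/ONC (limma adjusted p = 0.385) and 0.19 in TPEN/Ctrl (limma adjusted p = 0.186), each with a SE of 0.09. One Ctrl library lay within the range of TPEN, so the groups overlapped in all 3 comparisons.

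Fdft1 (chr14:63145153-63177793, minus strand) encodes squalene synthase, which commits isoprenoids to sterols. It stood at 8.52, 8.62 and 8.27 RPKM in the Ctrl libraries, 8.72, 6.77 and 9.53 in the ONC libraries and 9.27, 8.78 and 8.68 in the TPEN libraries. ONC held both the lowest and the highest library, and the spread of Fdft1 within groups was 2.32 times that of read counting, the widest ratio of the 8 genes. Its log2 fold change in ONC/Ctrl was -0.04 (SE 0.11, limma adjusted p = 0.854), and leaving out 1 library moved it between -0.14 and 0.10. Every TPEN library was above every Ctrl library, by a log2 fold change of 0.07 that did not pass (limma adjusted p = 0.719). Fdft1 shares exon sequence with Ctsb on the opposite strand, which rose in ONC/Ctrl by a log2 fold change of 0.22 (SE 0.03, limma adjusted p = 0.000498), and whether counting used strand is not given in the sources used here.

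Sqle (chr15:59315077-59331192, plus strand) encodes squalene epoxidase, a step that is often limiting for the sterol branch. Its levels were 2.33, 2.40 and 2.21 RPKM in the Ctrl libraries, 2.05, 2.49 and 2.24 in the ONC libraries and 2.18, 2.13 and 2.70 in the TPEN libraries. The groups overlapped in all comparisons, with log2 fold changes of -0.04 in ONC/Ctrl (limma adjusted p = 0.859) and 0.04 in TPEN/ONC (limma adjusted p = 0.869), each with a SE of 0.11.

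Lss (chr10:76531588-76557138, plus strand) encodes lanosterol synthase, which closes the sterol rings. It stood at 2.15, 2.36 and 2.02 RPKM in the Ctrl libraries, 2.09, 1.95 and 2.12 in the ONC libraries and 2.29, 2.13 and 2.36 in the TPEN libraries. The TPEN libraries were all above those of ONC, by a log2 fold change of 0.13 (SE 0.09) that did not pass (limma adjusted p = 0.456). The overlapping gene 4930483K19Rik had a log2 fold change of 0.84 in the same comparison (SE 0.18, limma adjusted p = 0.0219), and its part in the level of Lss was not tested.

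Dhcr7 (chr7:143823145-143848410, plus strand) encodes the reductase that makes cholesterol from 7-dehydrocholesterol. With 96 to 131 reads per library it had the lowest level of the 8, at 0.798, 0.915 and 0.942 RPKM in the Ctrl libraries, 0.980, 0.771 and 0.981 in the ONC libraries and 0.963, 0.743 and 1.09 in the TPEN libraries. The lowest and the highest library were both in TPEN. The log2 fold change was 0.03 in ONC/Ctrl (SE 0.16, limma adjusted p = 0.916) and 0.02 in TPEN/ONC (SE 0.16, limma adjusted p = 0.959).

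In ONC/Ctrl, 1 of the 8 genes was called at an adjusted p under 0.05, where 18.7% of the 13566 genes tested were called (11.7% higher and 6.97% lower). The median size of the log2 fold change, regardless of sign, was 0.04 for the 8 genes and 0.13 for all genes. The same values were 0.11 and 0.10 for TPEN/ONC, where the 8 genes moved as much as the median gene, and 0.05 and 0.12 for TPEN/Ctrl. In TPEN/ONC, 0 of the 8 were called by limma, against 7.39% of all genes (3.24% higher and 4.14% lower). Hmgcs1 alone had an unadjusted p under 0.05 (limma). The share of all genes at that threshold was not worked out, so this is no result about the 8 genes. The test on whole reads (voom) called 0 of the 8 as well, against 12.4% of all genes. In TPEN/Ctrl, 1 of the 8 was called by limma, against 13.4% (8.36% higher and 5.01% lower). With a fold change of at least 1.5 as well, 0 of the 8 were called in any of these comparisons, against 5.34%, 2.03% and 3.91% of all genes in the same order. All 8 log2 fold changes were above 0 in TPEN/ONC, from 0.02 to 0.14 with a median of 0.11, where 47.0% of all genes were above 0 and their median was -0.01. The 8 signs were the same after quantile normalization and after median-ratio scaling. The signs for Srebf2, Sqle, Fdft1 and Dhcr7 turned in TPEN/ONC when certain single libraries were left out. The 95% interval of each fold, taken gene by gene, lay between 0.767 and 1.32 (ONC/Ctrl), 0.789 and 1.31 (TPEN/ONC) or 0.807 and 1.34 (TPEN/Ctrl), so no interval of the 8 genes reached a 1.5-fold change. TPEN/ONC and ONC/Ctrl share the ONC libraries, and both Ctrl comparisons share the Ctrl libraries.

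**Figure D2:**
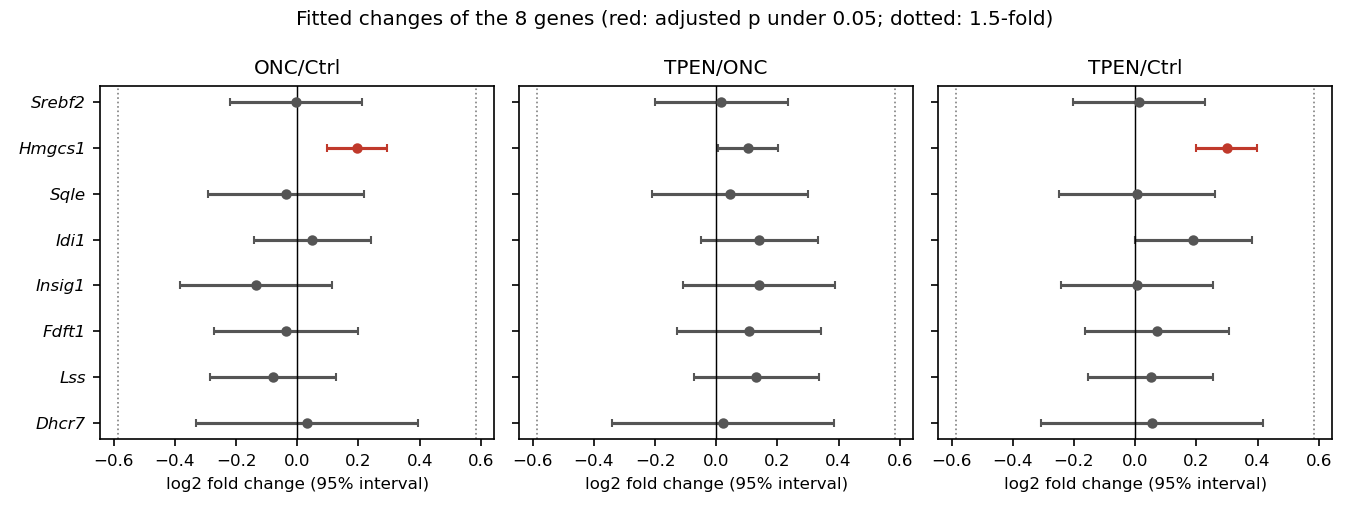
Log2 fold change of the 8 genes in ONC/Ctrl, TPEN/ONC and TPEN/Ctrl, with 95% intervals from the limma fit (9 libraries), taken gene by gene. Red points had an adjusted p under 0.05, which holds for Hmgcs1 in ONC/Ctrl (0.20) and TPEN/Ctrl (0.30), and dotted lines mark 1.5-fold, which no interval reaches.

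Over the 9 libraries, the levels of the 8 genes moved together only loosely. Of the 28 pairs among them, 24 had a positive Pearson correlation of the log2 levels, with a median of 0.17 and a range from -0.39 to 0.67. The mean of the centred log2 levels of the 7 genes other than Srebf2 was -0.04 to -0.02 in Ctrl, -0.11 to 0.01 in ONC and -0.03 to 0.15 in TPEN. Of 12085 genes searched, the 5 most alike to that mean were Snap47 (r = 0.926), Ifrd1 (r = 0.919), Tmem109 (r = 0.905), Pbx2 (r = 0.904) and Cntnap2 (r = 0.904). These correlations describe 9 libraries that share their depth and group structure, and the genes were picked as the highest of many.

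The list of 21 enzymes of cholesterol synthesis holds 6 of the 8 genes, and 20 of the 21 were tested. In ONC/Ctrl, 3 of the 20 were called higher (Hmgcs1, Pmvk and Ebp) and 1 lower (Tm7sf2). The median log2 fold change of the list was 0.01, and that of all genes was 0.02. In TPEN/ONC, 0 of the 20 were called in either direction by limma, while 3 were higher and 0 lower at an unadjusted p under 0.05. The share of all genes at that unadjusted threshold was not worked out, so the count is no result about the list. In TPEN/Ctrl, 3 were called higher and 0 lower. Beside these counts and those of the lists below, 18.7% of all genes tested were called in ONC/Ctrl, 7.39% in TPEN/ONC and 13.4% in TPEN/Ctrl.

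**Figure D3:**
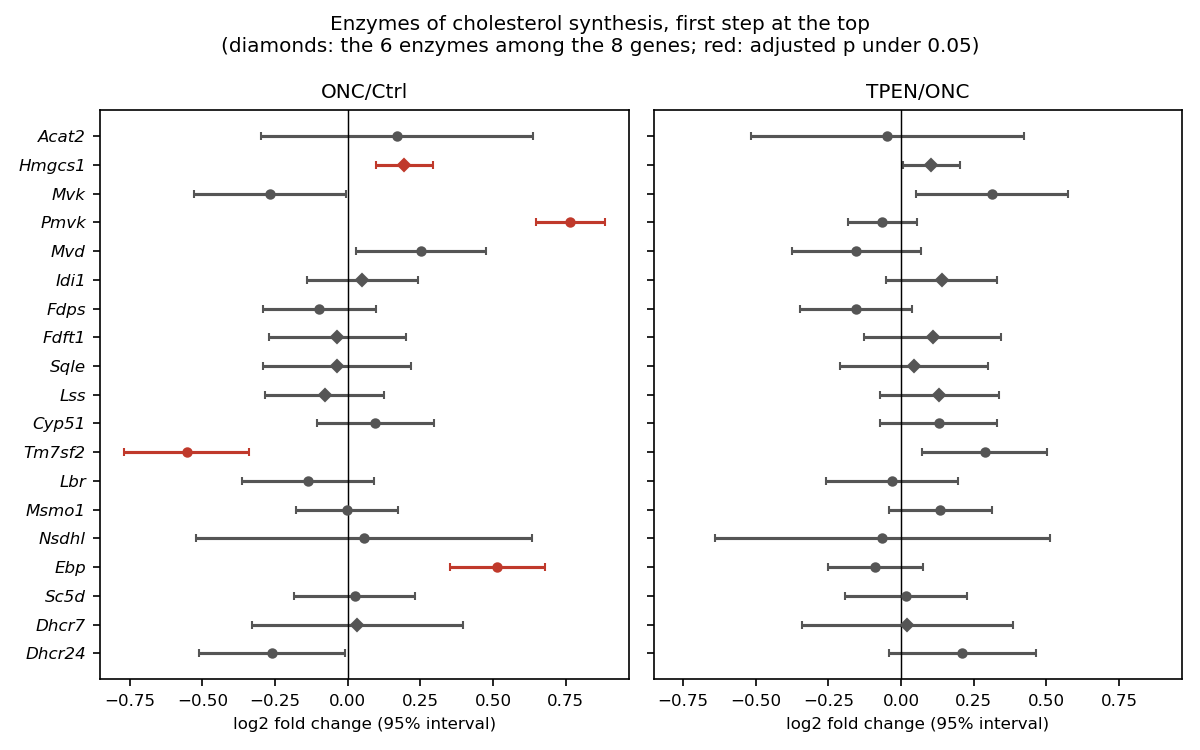
Log2 fold change of the tested and reported enzymes of cholesterol synthesis in ONC/Ctrl (left) and TPEN/ONC (right), in pathway order from the first step at the top, with 95% intervals from the limma fit (9 libraries). Diamonds are the 6 enzymes among the 8 genes and red marks an adjusted p under 0.05; Pmvk (0.77) and Ebp (0.51) lie to the right and Tm7sf2 (-0.55) to the left in ONC/Ctrl, and no enzyme shown is red in TPEN/ONC.

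Pmvk, the gene of phosphomevalonate kinase, stood at 28.0, 28.4 and 31.4 RPKM in the Ctrl libraries, 49.3, 51.0 and 49.1 in the ONC libraries and 45.5, 50.7 and 46.7 in the TPEN libraries. The injured groups did not overlap with Ctrl, and they overlapped with each other. Pmvk was upregulated in ONC/Ctrl by a log2 fold change of 0.77 (SE 0.05, limma adjusted p = 7.34e-06) and in TPEN/Ctrl by 0.70 (limma adjusted p = 2.46e-05), while TPEN/ONC gave -0.06 (limma adjusted p = 0.527). Ebp, the gene of a sterol isomerase late in the pathway, was 4.80 ± 0.112 (Ctrl), 6.90 ± 0.201 (ONC) and 6.50 ± 0.650 RPKM (TPEN; mean ± SD, n = 3). Its log2 fold change was 0.51 in ONC/Ctrl (SE 0.07, limma adjusted p = 0.000887), 0.43 in TPEN/Ctrl (limma adjusted p = 0.00400) and -0.09 in TPEN/ONC (limma adjusted p = 0.535). Both genes were thus called higher than Ctrl in each injured group.

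Tm7sf2, the gene of a sterol reductase that acts after lanosterol, stood at 6.01, 6.10 and 4.77 RPKM in the Ctrl libraries, 3.62, 3.89 and 3.84 in the ONC libraries and 4.54, 4.91 and 4.48 in the TPEN libraries. Every ONC library was below every other library. It was downregulated in ONC/Ctrl by a log2 fold change of -0.55 (SE 0.10, limma adjusted p = 0.00300), and TPEN/ONC gave 0.29 (SE 0.10), which did not pass (limma adjusted p = 0.110). Without Ctrl replicate 3, the lowest of its group, TPEN/ONC passed for Tm7sf2 (limma adjusted p = 0.0307), as did the decrease in TPEN/Ctrl (limma adjusted p = 0.0116). Tm7sf2 shares exon sequence with Vps51, whose log2 fold change in ONC/Ctrl was -0.09 (limma adjusted p = 0.470). The rod marker sum given above was also lowest in ONC and highest in Ctrl, and its part in the level of Tm7sf2 was not tested.

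**Figure D4:**
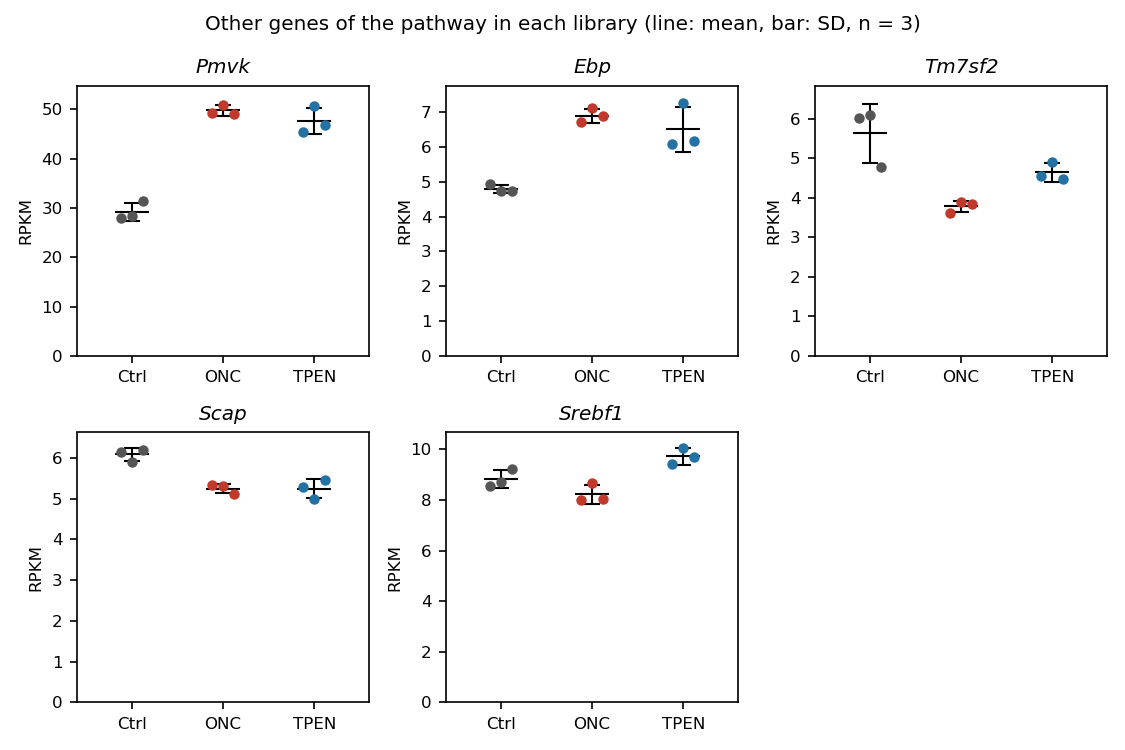
Level of Pmvk, Ebp, Tm7sf2, Scap and Srebf1 in every library, in RPKM on a linear axis from 0, with the group mean (line) and SD (bar, n = 3). Pmvk and Ebp lie higher in ONC and TPEN than in Ctrl, Tm7sf2 is lowest in ONC (3.62 to 3.89 RPKM), Scap lies lower in both injured groups and Srebf1 is highest in TPEN (9.41 to 10.1 RPKM).

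Among the 9 regulators of the pathway, which include Srebf2 and Insig1, 0 were called higher and 1 lower in ONC/Ctrl, and 1 higher and 0 lower in TPEN/ONC. Scap, the gene of the escort protein of the SREBPs, was 6.09 ± 0.156 (Ctrl), 5.25 ± 0.113 (ONC) and 5.25 ± 0.239 RPKM (TPEN; mean ± SD, n = 3). It was downregulated in ONC/Ctrl by a log2 fold change of -0.21 (SE 0.06, limma adjusted p = 0.0298) and in TPEN/Ctrl by -0.21 (limma adjusted p = 0.0380). The call in ONC/Ctrl for Scap was lost without Ctrl replicate 1, Ctrl replicate 3 or any one ONC library (limma adjusted p up to 0.0931), and that in TPEN/Ctrl was kept in 1 of 9 such cases (limma adjusted p up to 0.118). Its exons overlap those of 5830462I19Rik, which had a log2 fold change of -0.23 in ONC/Ctrl (limma adjusted p = 0.0564). Srebf1, the gene of the SREBP that mainly drives fatty acid synthesis, stood at 8.54, 8.72 and 9.22 RPKM in the Ctrl libraries, 7.99, 8.66 and 8.04 in the ONC libraries and 9.41, 10.1 and 9.71 in the TPEN libraries. Every TPEN library was above every library of the other groups. Its log2 fold change was 0.24 in TPEN/ONC (SE 0.05, limma adjusted p = 0.0275), and that call was lost without ONC replicate 1, ONC replicate 3, TPEN replicate 2 or TPEN replicate 3 (limma adjusted p up to 0.0998). Srebf1 shares exon sequence with Rai1, which had a log2 fold change of 0.16 in that comparison (limma adjusted p = 0.286). All 5 cone markers also rose in TPEN/ONC, by 0.73 (Arr3) to 0.96 (Pde6c) on the log2 scale, and their part in the change of Srebf1 was not tested.

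In the list of cholesterol uptake and transport, 1 of 8 tested genes was called higher and 1 lower in ONC/Ctrl and 0 of 8 in TPEN/ONC. At an unadjusted p under 0.05 (limma), 1 was higher and 2 were lower in TPEN/ONC. The share of all genes there was not worked out, so this count is no result about the list. Lrp1, a receptor for lipoproteins that carry apolipoprotein E, was higher by a log2 fold change of 0.38 in ONC/Ctrl (SE 0.09, limma adjusted p = 0.0141). That call was lost without Ctrl replicate 2 (limma adjusted p = 0.0511) or ONC replicate 2 (limma adjusted p = 0.0575). In TPEN/ONC, Lrp1 had a log2 fold change of -0.24, which did not pass in limma (limma adjusted p = 0.147) but was called by voom (voom adjusted p = 0.00690). Vldlr, a receptor of the same family, fell from 50.4 ± 0.259 RPKM in Ctrl to 42.1 ± 0.338 RPKM in ONC (SD, n = 3), and its log2 fold change was -0.26 (limma adjusted p = 7.27e-05). The rod marker sum was also lower in ONC than in Ctrl, and its part in the level of Vldlr was not tested. Hsd17b7, Lipa and Scd1 lay below the filter, and Ch25h, Cyp27a1 and Cyp7b1 were not among the listed genes. Lipa, the gene of the lysosomal lipase that frees cholesterol from its esters, is named because its values in the fit without the filter stood out. It was 0.172 ± 0.0699 (Ctrl), 0.650 ± 0.0856 (ONC) and 0.204 ± 0.0865 RPKM (TPEN, mean ± SD, n = 3). These levels rest on few reads per library (16, 12 and 6 in Ctrl, 51, 40 and 42 in ONC, 14, 7 and 16 in TPEN). In that fit, the log2 fold change of Lipa was 1.49 in ONC/Ctrl (limma adjusted p = 0.00285) and -1.34 in TPEN/ONC (limma adjusted p = 0.0137).

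In the list of efflux, esters and oxysterols, 1 of 8 tested genes rose in ONC/Ctrl, and in TPEN/ONC 1 fell. Both calls were Apoe. Apoe, the gene of the apolipoprotein that glia use to export cholesterol, was 172 ± 2.85 (Ctrl), 268 ± 5.48 (ONC) and 178 ± 5.42 RPKM (TPEN; mean ± SD, n = 3). Its log2 fold change was 0.64 in ONC/Ctrl (SE 0.03, limma adjusted p = 4.49e-07) and -0.59 in TPEN/ONC (SE 0.03, limma adjusted p = 3.92e-06). The microglia and macrophage and astrocyte sums given above were likewise higher in ONC than in Ctrl and lower in TPEN than in ONC. The Müller glia sum without Apoe was lower in ONC than in Ctrl and lowest in TPEN, but its genes did not move alike. Of its called genes in ONC/Ctrl, Vim rose (log2 fold change 1.59), while Glul (-0.57), Aqp4 (-0.32) and Rlbp1 (-0.18) fell. In TPEN/ONC, Aqp4 (0.30) and Sox9 (0.29) rose, while Vim (-0.38), Rlbp1 (-0.23) and Glul (-0.18) fell. The part of these cell types in the values of Apoe, Lipa and Lrp1 was not tested.

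Of the 9 tested genes of fatty acid synthesis, 1 was called higher and 2 lower in ONC/Ctrl, and 2 higher and 0 lower in TPEN/ONC. Elovl6, a fatty acid elongase and a known target of SREBPs, was 1.85 ± 0.199 (Ctrl), 1.43 ± 0.0402 (ONC) and 2.12 ± 0.135 RPKM (TPEN; mean ± SD, n = 3). Its log2 fold change was -0.34 in ONC/Ctrl (limma adjusted p = 0.0459) and 0.53 in TPEN/ONC (SE 0.10, limma adjusted p = 0.0146). Me1, the malic enzyme that supplies NADPH, had log2 fold changes of -0.12 in ONC/Ctrl (limma adjusted p = 0.0303) and 0.14 in TPEN/ONC (limma adjusted p = 0.0277). Its exons overlap those of A330041J22Rik, which had a log2 fold change of 0.20 in TPEN/ONC (limma adjusted p = 0.601). Acaca, the acetyl-CoA carboxylase at the entry to fatty acids, was higher in ONC/Ctrl by 0.18 on the log2 scale (limma adjusted p = 0.0498). Leaving out 1 library kept the call in ONC/Ctrl in 1 of 9 cases for Elovl6, in 4 of 9 for Me1 and in 0 of 9 for Acaca, and in TPEN/ONC in 6 of 9 for Elovl6 and in 3 of 9 for Me1. The cone marker sum was also lower in ONC than in Ctrl and highest in TPEN, and its part in the values of Elovl6 and Me1 was not tested. Of the 9 tested genes of the nonsterol isoprenoid branch, 0 were called by limma in any comparison. At an unadjusted p under 0.05 (limma), 2 were lower in ONC/Ctrl and 2 higher in TPEN/ONC. The share of all genes at that threshold was not worked out, so these counts are no result about the branch. Over all 63 tested genes of the lists, 6 were called higher and 5 lower in ONC/Ctrl, 3 higher and 1 lower in TPEN/ONC, and 5 higher and 3 lower in TPEN/Ctrl. Of all genes tested, 11.7% were called higher and 6.97% lower in ONC/Ctrl. These shares were 3.24% and 4.14% in TPEN/ONC and 8.36% and 5.01% in TPEN/Ctrl.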

How the data were processed

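RNA of sorted cells was sequenced from 9 libraries in 3 groups, after a stranded mRNA kit. The authors trimmed reads with Trimmomatic (0.36), mapped them with STAR to GRCm38/mm10 and deposited RPKM values for 15228 genes. The counting program and annotation, the use of strand in counting and whether molecular identifiers were collapsed are not given in the sources used here. The deposited table also holds 9 columns of the authors' own comparisons (log2 fold changes and p-values), which were not used. All RPKM values were whole multiples of the value of 1 read (tolerance 0.01), which gave the read numbers and library totals. A count of 0 allows up to 3 reads, or 0.130 to 0.150 RPM, and this covers counting error only.

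Genes whose mean reached 0.5 RPKM (13566) were fitted as log2(RPKM + 0.1) in R (4.3.3) with limma (3.58.1), with 1 coefficient per group over all 9 libraries and the trend option. P-values were adjusted over all genes by the Benjamini-Hochberg method, and a gene was called at an adjusted p under 0.05. The pseudocount of 0.1 understates the fold change of low genes. The script was tested on simulated data. The alternatives were quantile normalization, median-ratio scaling, a pseudocount of 1, no filter, a mean of at least 1 RPKM, the 6 compared libraries only, a replicate block, voom on the whole reads, treat against 1.5-fold, a 1.5-fold minimum, and leaving out each of the 9 libraries. Named genes were the 8 members, all called regulators and synthesis enzymes, up to 3 called genes of each other list per comparison, and the 5 genes most alike. Certain other genes that the rule names are not reported here. The members and lists were chosen with earlier results of these data known.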

Additional observations from a re-analysis of the deposited data

How the results depend on the processing

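With treat against 1.5-fold, or with a minimum of 1.5-fold, the members called higher went from 1 to 0 both for ONC/Ctrl and for TPEN/Ctrl. Leaving out 1 library gave 0 to 1 in ONC/Ctrl. Over the lists, treat left 0 genes of the 6 higher and 5 lower in ONC/Ctrl, 0 of the 3 higher and 1 lower in TPEN/ONC, and 0 of the 5 higher and 3 lower in TPEN/Ctrl. The 1.5-fold minimum left 2 higher and 0 lower in ONC/Ctrl, 0 higher in TPEN/ONC, and 1 higher and 0 lower in TPEN/Ctrl. In fits to the 6 compared libraries alone, 3 genes were lower in ONC/Ctrl and 3 higher in TPEN/Ctrl. The genes lower in TPEN/ONC were 2 without the filter and 3 with voom, which called 12.4% of all genes in that comparison in either direction. Leaving out 1 library gave 4 to 6 higher and 2 to 5 lower in ONC/Ctrl, 0 to 4 higher in TPEN/ONC, and 3 to 5 higher and 1 to 3 lower in TPEN/Ctrl. Libraries with the same replicate number did not deviate together (r from -0.06 to 0.03 over 9 pairs). For 18 pairs with different numbers, r was -0.04 to 0.05. With 3 libraries per group, these values cannot show whether libraries of the same number share an animal or a batch. The replicate block left 2 lower in ONC/Ctrl, 1 higher in TPEN/ONC and 3 higher in TPEN/Ctrl.

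Small changes that did not pass the test turned sign. Under quantile normalization the log2 fold change in TPEN/Ctrl was -0.00817 for Srebf2, -0.041 for Sqle, -0.046 for Insig1 and -0.049 for Dhcr7. For Dhcr7 in ONC/Ctrl it was -0.082. For Scap in TPEN/ONC it was 0.00836, where median-ratio scaling gave 0.00758. With voom it was 0.0022 for Srebf2 in ONC/Ctrl and -0.00076 for Sqle in TPEN/Ctrl. Leaving out 1 library moved Dhcr7 between -0.033 and 0.14 (ONC/Ctrl), -0.087 and 0.16 (TPEN/ONC) or -0.054 and 0.19 (TPEN/Ctrl). It moved Srebf2 between -0.10 and 0.082 (ONC/Ctrl), -0.027 and 0.049 (TPEN/ONC) or -0.086 and 0.099 (TPEN/Ctrl). It moved Sqle between -0.11 and 0.027 (ONC/Ctrl), -0.060 and 0.11 (TPEN/ONC) or -0.098 and 0.068 (TPEN/Ctrl). Fdft1 ranged from -0.14 to 0.10 for ONC/Ctrl and from -0.033 to 0.21 for TPEN/ONC, Idi1 from -0.010 to 0.12 in ONC/Ctrl, Insig1 from -0.082 to 0.091 in TPEN/Ctrl and Scap from -0.031 to 0.033 in TPEN/ONC. Over all genes, 62.7% of the calls in ONC/Ctrl were higher, and 46.9% after quantile normalization. For TPEN/ONC these shares were 43.9% and 53.9%, for TPEN/Ctrl 62.5% and 52.0%. The cause was not tested.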
